A study of Mus musculus with 2 samples.

Results

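The genes through which pigment cells and their neighbours signal to one another, and the genes of pigment itself, were followed through newborn mouse back skin: the receptor gene Kit and its ligand gene Kitl, the endothelin gene Edn3 and the receptor genes Ednra and Ednrb, the melanosome and melanin genes Pmel, Dct, Tyrp1 and Tyr, and Gpnmb. They were chosen by symbol, and all 10 were found among the 56694 genes of the single-cell matrices. The data consist of 2 libraries of dissociated back skin epidermis at postnatal day 2, with 1 library from control mice, labelled WT, and 1 from mice labelled Gli2_EKO and called Gli2EKO here. In Gli2EKO mice a K14Cre transgene removes floxed Gli2 from keratinocytes, and the controls are floxed littermates without Cre, all on a C57BL/6N background. The Cre acts in the keratinocyte lineage and is not directed at melanocytes or fibroblasts, and the number of mice behind each library is not given in the sources used here. Melanocytes, fibroblasts and the layers of the hair follicle were found by marker genes outside the 10, so that the levels of the 10 genes did not decide which cell belonged where.

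Pigment in mouse hair is made by melanocytes, cells of neural crest origin that settle among the matrix keratinocytes of the follicle and hand melanosomes to the cells of the hair shaft. Kit is a receptor tyrosine kinase on melanocytes and their precursors, and its ligand, stem cell factor, is encoded by Kitl and made by neighbouring cells. Endothelin 3, the product of Edn3, acts on melanocyte precursors through the receptor encoded by Ednrb, while Ednra encodes the second endothelin receptor. Tyr, Tyrp1 and Dct encode the enzymes of melanin synthesis, Pmel the fibril protein of the melanosome, and Gpnmb a glycoprotein of melanosomes and lysosomes.

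After the study's limits on detected genes and mitochondrial UMIs (unique molecular identifiers, one per captured RNA molecule) and the removal of likely doublets, 4456 control and 3093 Gli2EKO cells remained, with a median of 11827.5 and 11936 UMIs per cell. No barcode occurred in both libraries. Keratinocytes were 3321 and 2307 of these cells. The level of a gene, in CPM (UMI counts scaled to a fixed total), is its share of all UMIs that a class of cells had in 1 library, and a log2 ratio always sets Gli2EKO over control. Intervals in parentheses are exact, at 95%, and hold the error of counting but not that of sampling mice. Those of levels, log2 ratios and shares of UMIs treat UMIs as independent and also leave out variation between cells. Each genotype had 1 library, so that there was no replicate, no test was made, and every difference given here is one between these libraries. Reads were counted from the polyA end of the RNA and carry no length term, and levels were therefore compared between cells and libraries but not between genes. The targeted gene itself gave 83.0 CPM in control and 84.6 CPM in Gli2EKO keratinocytes, and since reads from the polyA end may lie outside the deleted part, this does not check the labels. Gli1, a target of the Hedgehog pathway that was looked up after its values were known, was at 22.0 CPM in control and 12.3 CPM in Gli2EKO keratinocytes, a log2 ratio of −0.84 (−1.01 to −0.67). Follicle keratinocytes were 56.1% of control and 42.2% of Gli2EKO cells. Within the class of outer root sheath and stem cells Gli1 was at 40.7 and 28.9 CPM, a log2 ratio of −0.49 (−0.75 to −0.24).

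Each of the 10 genes had its own distribution over the cell classes, which are called by the type whose markers they carried. Pmel, Dct, Tyrp1 and Tyr were at their highest in melanocyte-like cells and far lower in every other class, Kit was at its highest there too, and Kitl, Edn3, Ednra and Ednrb were at their highest in other cells. Kitl peaked in a follicle class with markers of the early hair lineage, Edn3 in dermal papilla-like cells, Ednrb in a Col11a1-led group of fibroblast-like cells, followed by melanocyte-like cells, and Ednra in pericyte-like cells and the same Col11a1-led group. Gpnmb peaked in melanocyte-like cells and was next highest in the early hair lineage and hair shaft classes.

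**Figure D1:**
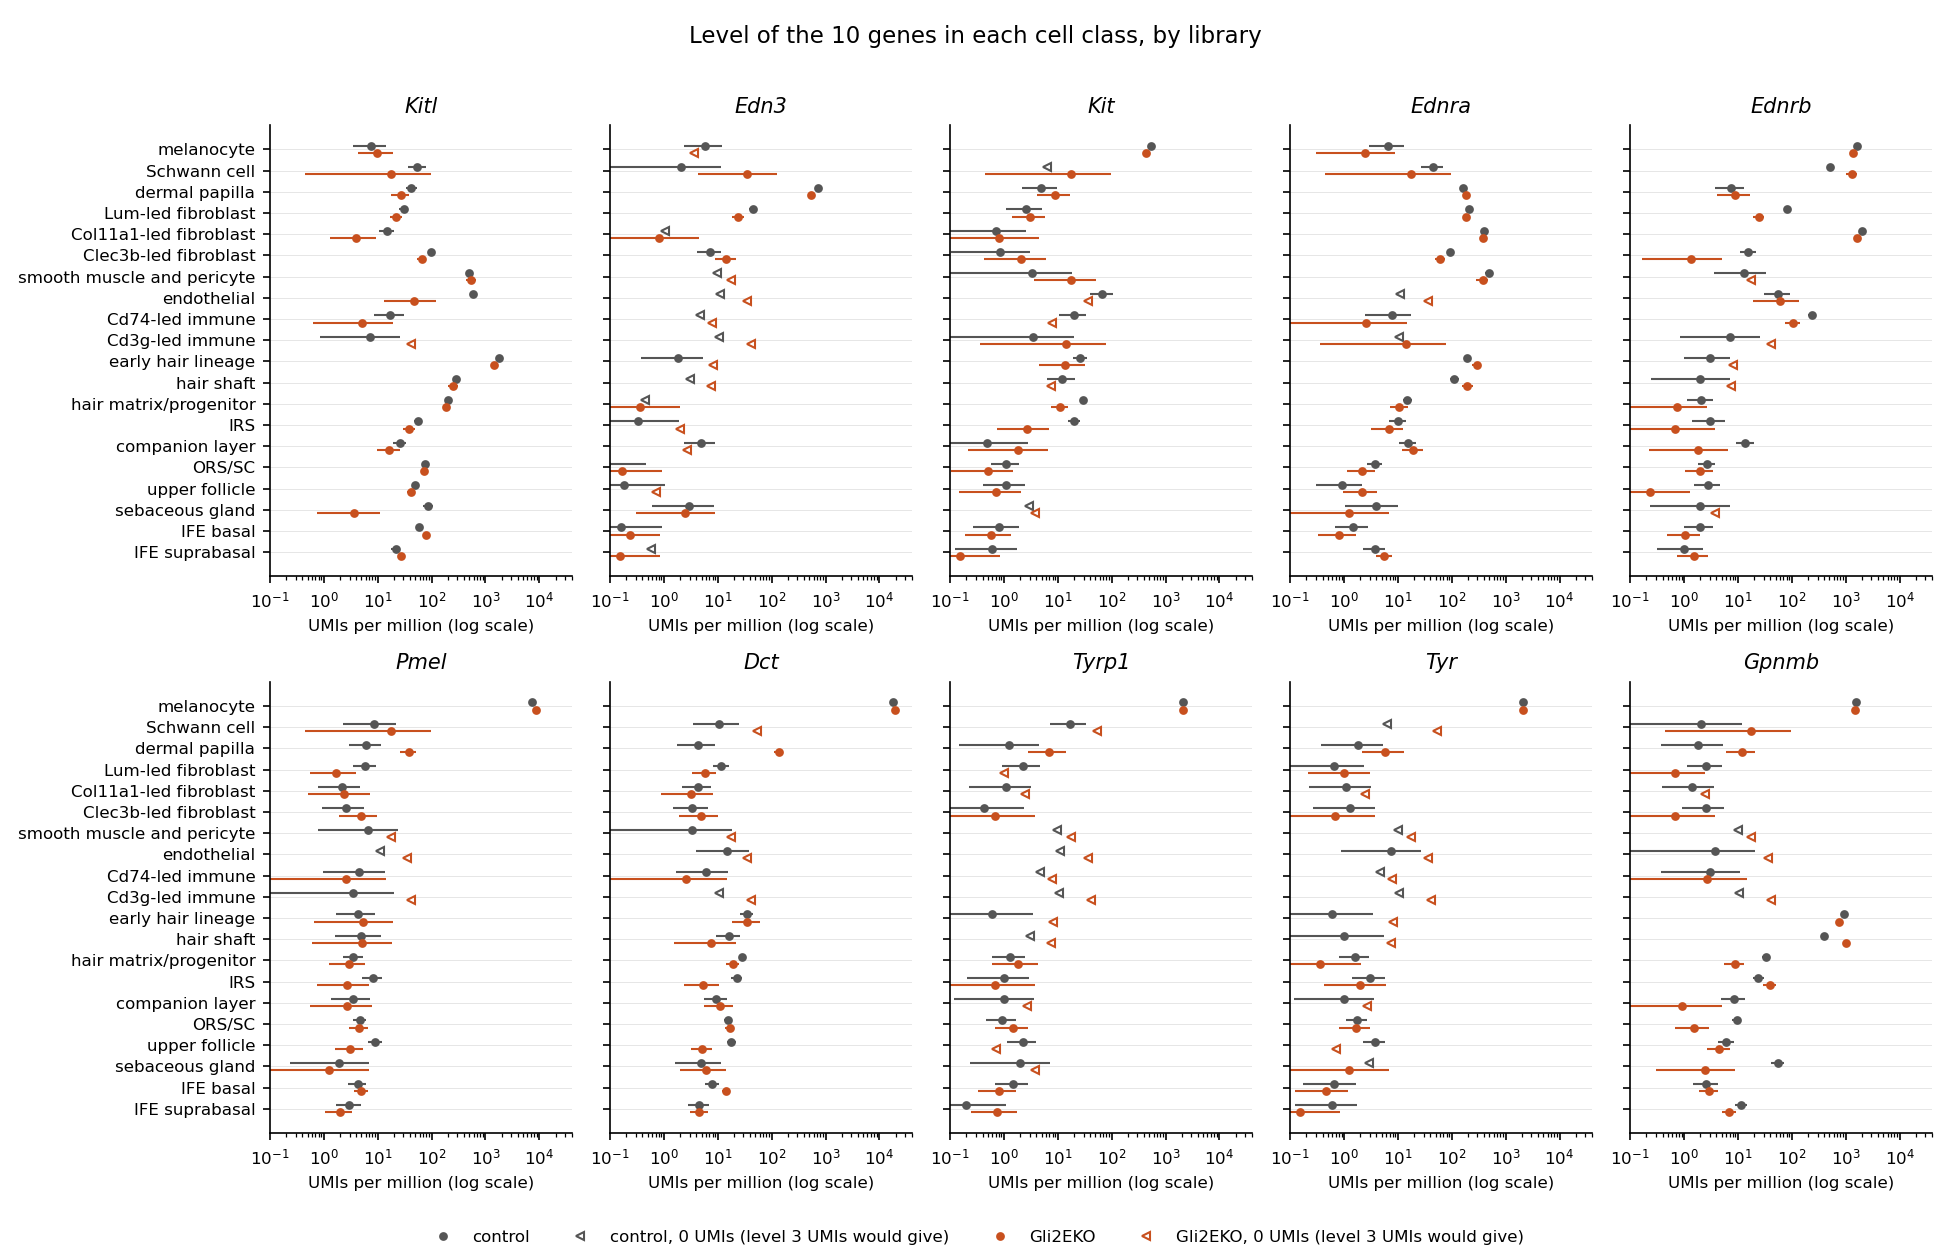
Level of each of the 10 genes in every cell class, in CPM on a log scale, for the control library (grey) and the Gli2EKO library (orange); bars are exact 95% Poisson intervals, and open triangles mark the level that 3 UMIs would give where a class held none. Kitl is highest in early hair lineage-like cells (1793 and 1466 CPM), Edn3 in dermal papilla-like cells (721 and 529 CPM) and the pigment genes in melanocyte-like cells.

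Kitl (ENSMUSG00000019966, chr10:99851492-99936278 on the plus strand of GRCm39, 10 exons), the gene of the Kit ligand, was read mostly in keratinocytes, which held 89.6% of its 10533 UMIs. Keratinocytes were also 74.5% of control and 74.6% of Gli2EKO cells. Kitl was at 144 CPM in control and 83.1 CPM in Gli2EKO keratinocytes, against 126 and 73.8 CPM in all cells kept. In the early hair lineage-like cells, a class of 207 control and 64 Gli2EKO cells marked by Foxq1, Krt75, Krt90, Krt23, Tgm6 and Aldh1a3, Kitl was at 1793 CPM (1729 to 1859) in control and 1466 CPM (1345 to 1594) in Gli2EKO cells. The control value was the higher, with a log2 ratio of −0.29 (−0.43 to −0.16). A Kitl UMI was found in 160 of the 207 control and 56 of the 64 Gli2EKO cells, and no barcode held more than 114 of the 2937 control UMIs. When each cell was thinned to 2000 UMIs, 63.8% of 207 control and 68.3% of 60 Gli2EKO cells kept a Kitl UMI, 4 Gli2EKO cells being too shallow, against 1.08% of 93 control and 0 of 36 Gli2EKO immune cells at the same depth, which for the latter allows a share of up to 8.33%. The share and the CPM thus pointed in opposite directions, and no order between the libraries was read from them. Taken cell by cell from the class markers in place of clusters, with 1708 control and 70 Gli2EKO UMIs, the log2 ratio was 0.03 (−0.34 to 0.37). The 6 markers of this class together were lower in the Gli2EKO cells, at 691 CPM against 1331 CPM in control cells, and the part of this in the Kitl difference was not tested.

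Along the follicle, Kitl was next highest in the hair shaft and the matrix, while the intervals of the IRS and upper follicle classes overlapped. Hair shaft-like cells had 279 CPM (247 to 314) in control and 252 CPM (205 to 307) in Gli2EKO cells. Matrix-like cells, the dividing progenitors that carry Shh, Msx1 and Lef1, had 205 CPM in control and 185 CPM in Gli2EKO cells, a log2 ratio of −0.15, which without the leading barcode of each library was −0.12 (−0.28 to 0.03). Cells of the outer root sheath and stem cell class (ORS/SC) had 75.3 and 73.3 CPM, and their log2 ratio of −0.04 (−0.21 to 0.13) did not stand apart from 0. In inner root sheath-like (IRS) cells the values were 55.6 and 38.4 CPM, and in the upper follicle 49.6 and 41.0 CPM. Each of these follicle classes had the higher value in control, though for ORS/SC, hair shaft and upper follicle the interval of the ratio included 0. Basal cells of the interfollicular epidermis (IFE) ran the other way, with 58.0 CPM in control and 79.7 CPM in Gli2EKO cells, a log2 ratio of 0.46 (0.27 to 0.65) in which no barcode held more than 14 UMIs. Suprabasal IFE cells had 21.8 and 27.2 CPM, a ratio whose interval (−0.03 to 0.68) included 0. In sebaceous gland-like cells 89 control UMIs stood against 3 Gli2EKO UMIs, but a single control barcode held 74 of the 89. Without the leading barcode of each library the levels there were 15.1 and 1.27 CPM, a ratio of −3.57 (−8.97 to −0.87). Few UMIs stood behind that ratio, as 2 of the 3 Gli2EKO UMIs lay in the barcode left out.

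Over all keratinocytes, Kitl was at 144 CPM in control and 83.1 CPM in Gli2EKO cells, a log2 ratio of −0.80 (−0.86 to −0.73), where the median of all genes was −0.14. The classes in which Kitl was highest also took a smaller share of the Gli2EKO library: the early hair lineage class was 4.65% of control and 2.07% of Gli2EKO cells, matrix-like cells 8.91% and 5.21%, while basal IFE cells were 8.10% and 18.2%. With the Gli2EKO clusters weighted to control proportions, Kitl was at 128 CPM and the log2 ratio became −0.17. Of the 15 keratinocyte clusters, 8 had less Kitl in the Gli2EKO library. Leaving out the early hair lineage class alone gave −0.31 (−0.38 to −0.23). In the control library this class held 44.1% of all keratinocyte Kitl UMIs and basal IFE cells 5.36%, and in the Gli2EKO library they held 19.6% and 24.9%.

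**Figure D2:**
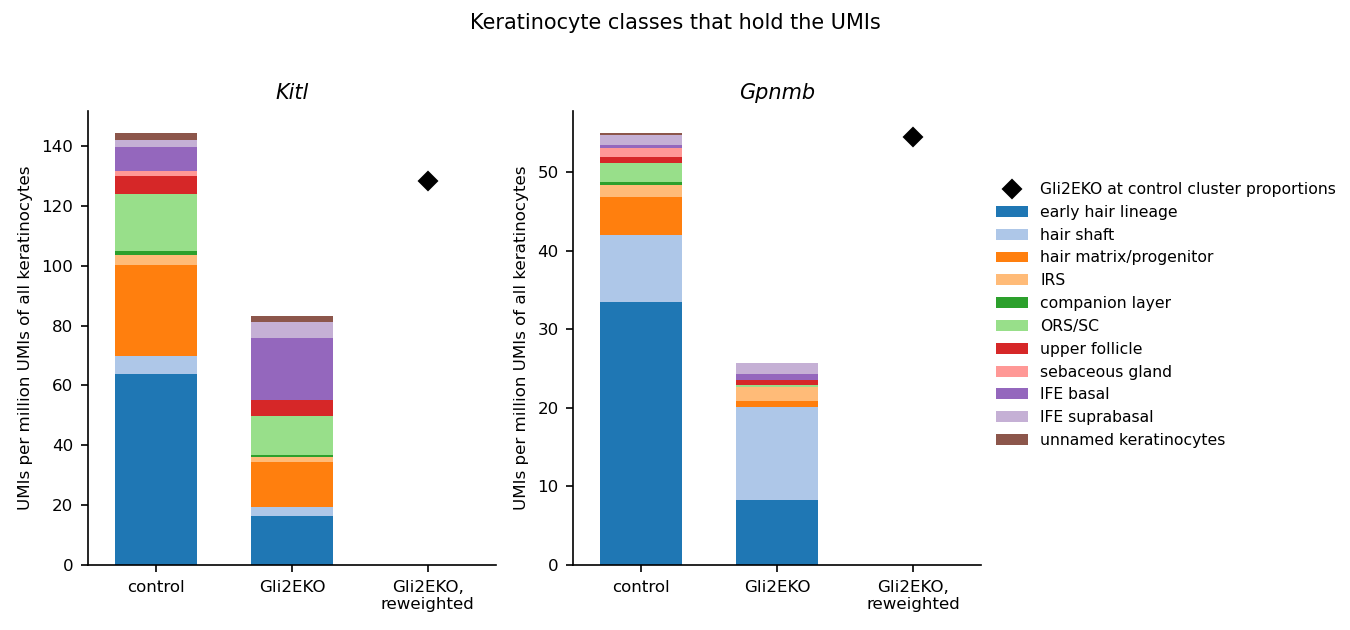
Stacked bars split the Kitl (left) and Gpnmb (right) UMIs of all keratinocytes, in CPM, into the classes that held them, for each library; the diamond is the Gli2EKO level after its clusters were weighted to control proportions. Early hair lineage-like cells (dark blue) form the largest part of both control bars, and the diamonds, at 128 CPM for Kitl and 54.5 CPM for Gpnmb, lie far nearer to the control bars than the unweighted Gli2EKO bars do.

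Outside the epithelium, Kitl was found in cells of vessels and, at a lower level, in 159 of 653 control and 82 of 496 Gli2EKO fibroblast-like cells. Pericyte-like cells (26 control, 20 Gli2EKO) had 505 CPM in control and 547 CPM in Gli2EKO cells, with a log2 ratio of 0.11 (−0.27 to 0.49). Endothelial cells, of which there were 23 and 8, had 162 control UMIs (596 CPM) against 4 Gli2EKO UMIs (47.5 CPM). That difference rested on 8 Gli2EKO cells. Among the fibroblast-like cells, the Clec3b-led group had 96.3 and 65.2 CPM, a log2 ratio of −0.56 (−0.92 to −0.21), and the Lum-led group 30.2 and 21.8 CPM. Dermal papilla-like cells had 42.3 and 26.5 CPM, but 19 of the 69 control UMIs lay in 1 barcode, and without the leading barcodes the ratio was −0.38 (−1.14 to 0.35). With cells taken one by one from markers it turned to 0.98 (−0.26 to 2.20), on 14 and 12 UMIs. Melanocyte-like cells held 9 control and 8 Gli2EKO Kitl UMIs. The level in them, 7.52 and 9.77 CPM, was close to the 10.8 CPM of immune cells in both libraries together.

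Edn3 (ENSMUSG00000027524, chr2:174602088-174625835, plus strand, 5 exons), which encodes endothelin 3, was read mostly in the dermal papilla, the mesenchymal centre of the follicle. Dermal papilla-like cells, marked by Corin, Sox2, Rspo3, Hhip, Crabp1 and Fgf10 among others, held 85.7% of its 2000 UMIs, and the 5628 keratinocytes held 27 UMIs. In dermal papilla-like cells Edn3 was at 721 CPM in the 195 control cells (1175 UMIs) and at 529 CPM in the 151 Gli2EKO cells (539 UMIs). The control library was higher, with a log2 ratio of −0.45 (−0.60 to −0.30) that hardly moved without the leading barcodes (−0.46). At 2000 UMIs per cell, 59.5% (52.2 to 66.4%) of control and 52.3% (44.0 to 60.5%) of Gli2EKO cells kept an Edn3 UMI, and none of 93 control immune cells did, which allows a share of up to 3.23%. The 8 dermal papilla markers in sum showed a difference of the same size, with 6671 CPM in control and 4828 CPM in Gli2EKO cells (log2 ratio −0.47), and Edn3 relative to these markers was about level. The Lum-led fibroblast-like cells, second in order, had 45.0 CPM in control and 23.8 CPM in Gli2EKO cells, a log2 ratio of −0.92 (−1.35 to −0.50). The Clec3b-led group had 17 control and 21 Gli2EKO UMIs, 7.18 and 14.4 CPM, with an interval that just cleared 0 (0.01 to 2.02). Edn3 was not detected in the 130 immune cells. In melanocyte-like cells 7 UMIs were read in control, 5 of them in 1 cell, and 0 in Gli2EKO cells, where 3 UMIs would have been 3.66 CPM.

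Kit (ENSMUSG00000005672, chr5:75735576-75817404, plus strand, 21 exons), the receptor for stem cell factor, was at 539 CPM (498 to 582) in the 104 control melanocyte-like cells and at 427 CPM (384 to 475) in the 67 Gli2EKO ones. Control was higher, by a log2 ratio of −0.33 (−0.53 to −0.14). Single cells had from 0 to 37 Kit UMIs in control (median 5) and from 0 to 19 in Gli2EKO (median 4), the median levels were 532 and 374 CPM, and 96 of 104 and 65 of 67 cells had at least 1 Kit UMI, at a median of 7715 and 10025 UMIs per cell. At a common 2000 UMIs the shares were 59.6% and 58.2%, and the libraries were alike in the share of cells with Kit. The libraries differed in which melanocyte-like cells they held, as described with the pigment genes. The stress-response genes induced by tissue dissociation (Fos, Jun, Egr1 and others, 10 in all) summed to 3051 CPM in control and 2059 CPM in Gli2EKO melanocyte-like cells, and their part in this or the other melanocyte values was not tested.

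Kit was also present in follicle keratinocytes, at a lower level and with a wider difference between the libraries. In matrix-like cells 203 control UMIs were spread over 103 of 397 cells, and 30 Gli2EKO UMIs over 19 of 161 cells. This gave 29.7 CPM (control) and 10.9 CPM (Gli2EKO), a log2 ratio of −1.44 (−2.05 to −0.88), and −1.59 without the leading barcodes. In IRS-like cells Kit was at 20.2 CPM in control (60 UMIs) and 2.70 CPM in Gli2EKO (4 UMIs), a ratio of −2.90 (−4.83 to −1.47). Early hair lineage-like cells had 43 and 5 UMIs, and their interval (−2.65 to 0.37) included 0. The other keratinocyte classes were at 1.81 CPM or below, except for hair shaft-like cells, with 12 control and 0 Gli2EKO UMIs. At 2000 UMIs per cell, 5.05% of control and 2.48% of Gli2EKO matrix-like cells kept a Kit UMI. In basal IFE cells it was 0.277% of control and 0.178% of Gli2EKO cells. The Kit UMIs of each class were also counted against those of the pigment genes, and their source was not tested. In melanocyte-like cells there were 1.61 Kit UMIs for every 100 UMIs of Pmel, Dct, Tyrp1 and Tyr, but 76.6 in matrix-like, 53.8 in IRS-like and 59.3 in early hair lineage-like cells, and 3.88 in ORS/SC-like cells. Of the Kit UMIs in matrix-like cells of both libraries, 61.8% lay in cells without any UMI of those 4 genes. Matrix-like cells with Kit had a mean of 0.738 UMIs of those genes, and those without Kit 0.491. In IRS-like cells the means were 0.200 and 0.365, and in early hair lineage-like cells 0.172 and 0.314. These means are over both libraries, and the cells with and without Kit were not matched for depth. Over all keratinocytes there were 346 control and 53 Gli2EKO Kit UMIs, a log2 ratio of −2.24 (−2.69 to −1.82), and with clusters weighted to control proportions the Gli2EKO level was 2.66 CPM in place of 1.59 CPM. Melanocyte-like cells held 61.8% of all Kit UMIs of the control library and 81.4% of those of the Gli2EKO library. A further 18 control UMIs lay in endothelial cells, where the Gli2EKO library had none in 8 cells, and in immune cells the mast cell markers, which accompany Kit, summed to 3101 CPM in control and 2.20 CPM in Gli2EKO.

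The 10 genes were set beside all genes by a fixed size, a 2-fold difference among those with 20 UMIs or more when the libraries were summed. In matrix-like cells 6 of the 10 had as many, and 2 of these, Kit and Gpnmb, were lower past 2-fold, where 7.01% of all 11960 genes were past it (3.95% lower and 3.06% higher). In all keratinocytes each of the 10 could be read and 5 (Kit, Edn3, Ednrb, Tyr and Gpnmb) were lower past 2-fold, where 7.20% of all genes were past it (4.91% lower and 2.29% higher). Of those 5, Edn3 rested on 27 UMIs with an interval that included 0 (−2.53 to 0.25), Tyr on 94 and Ednrb on 167. In the early hair lineage class 0 of 5 were past 2-fold, against 9.53% of all genes (3.53% higher). In hair shaft-like cells it was 1 of 3, Gpnmb, against 8.46% (4.67% lower, 3.79% higher), and in pericyte-like cells 0 of 2, against 13.3% (9.04% lower, 4.28% higher).

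**Figure D3:**
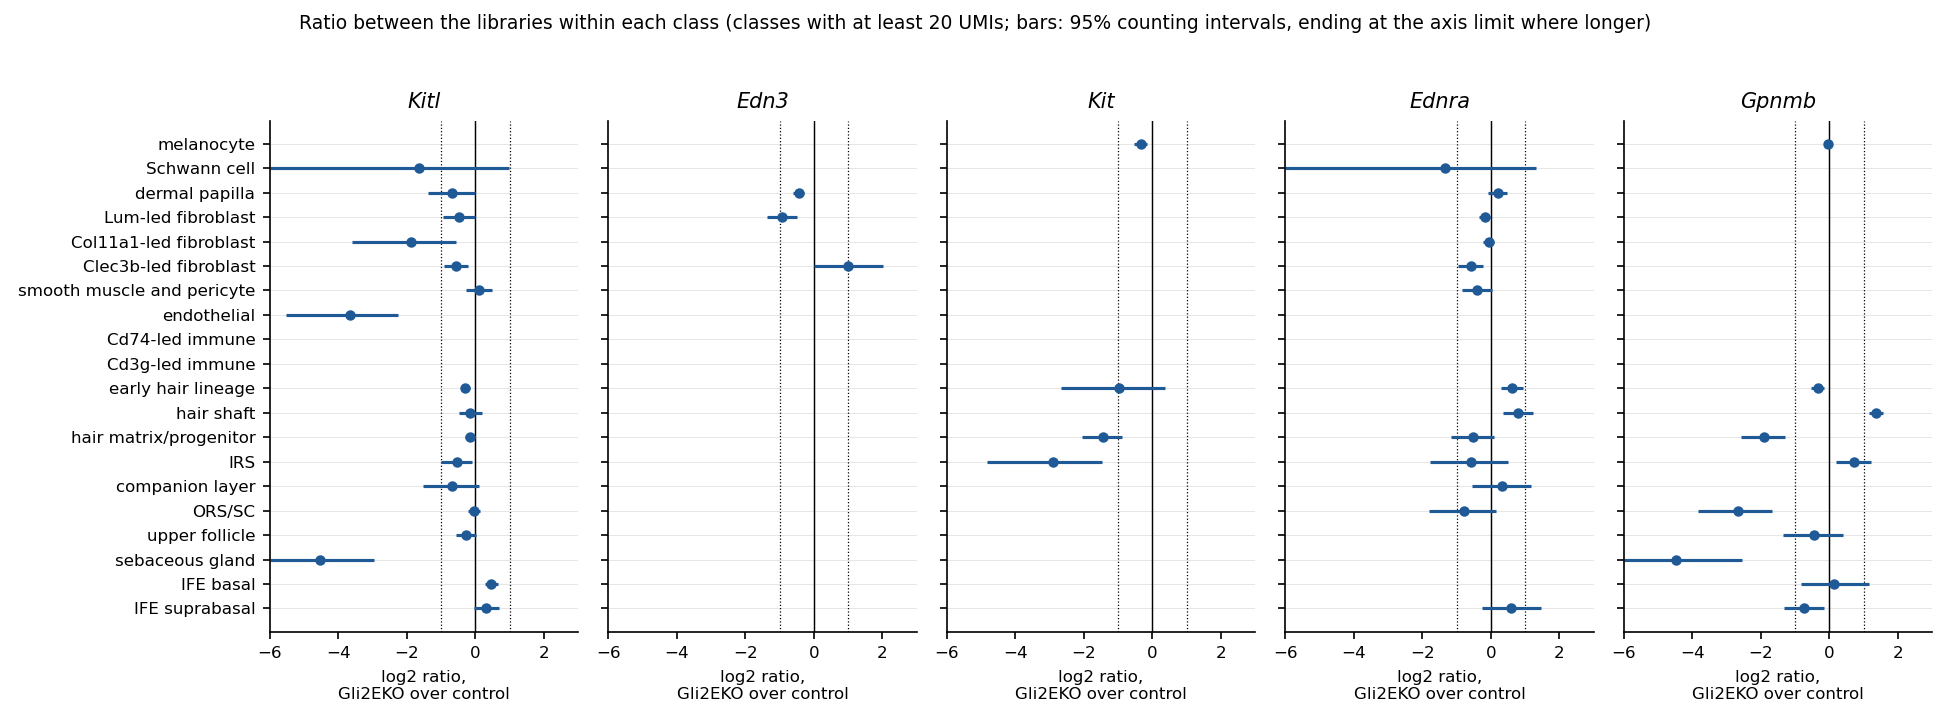
Log2 ratio, Gli2EKO over control, of Kitl, Edn3, Kit, Ednra and Gpnmb in each class with at least 20 UMIs of the gene over both libraries; bars are 95% counting intervals, cut at the axis limit, and dotted lines mark 2-fold. Kit lies left of 0 in the 4 classes shown, Kitl in the follicle and fibroblast classes but not in the IFE classes (0.46 in basal cells), and Gpnmb on both sides.

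Ednra (ENSMUSG00000031616, chr8:78386590-78451552, minus strand, 8 exons), the receptor best known from vessel walls, had its highest values in pericyte-like cells, with 492 CPM in control and 372 CPM in Gli2EKO cells. The ratio there, −0.40, had an interval (−0.85 to 0.03) that included 0. The Col11a1-led fibroblast-like cells did not differ from them beyond the counting intervals, with 396 and 381 CPM, and their ratio was −0.06 (−0.21 to 0.10). Lum-led fibroblast-like cells had 205 and 181 CPM, and dermal papilla-like cells 161 and 185 CPM, a ratio of 0.20 (−0.08 to 0.48). In the Clec3b-led group the values were 92.1 and 61.7 CPM (log2 ratio −0.58, −0.95 to −0.22). In the epithelium Ednra was highest in the early hair lineage and hair shaft classes, which were also the highest for Kitl. Early hair lineage-like cells had 192 CPM in control and 294 CPM in Gli2EKO cells, a ratio of 0.61 (0.29 to 0.93), and hair shaft-like cells 112 and 194 CPM, a ratio of 0.80 (0.36 to 1.23). In both of these classes the Gli2EKO library was the higher. At 2000 UMIs per cell 23.2% of control and 33.3% of Gli2EKO early hair lineage-like cells kept an Ednra UMI, against 0.831% of control and 0 of 562 Gli2EKO basal IFE cells. Among early hair lineage-like cells of at least 5000 UMIs, thinned to that depth, 39.9% (32.8 to 47.3%) had both Kitl and Ednra, where the product of the separate shares was 32.9%, and 50.5% (43.2 to 57.9%) had both Kitl and Gpnmb, where the product was 41.0%. Over all keratinocytes Ednra was lower in Gli2EKO (log2 ratio −0.62, −0.82 to −0.43), and with clusters weighted to control proportions it was higher (0.40). In melanocyte-like cells it was near the floor, with 8 control and 2 Gli2EKO UMIs.

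Ednrb (ENSMUSG00000022122, chr14:104052053-104081900, minus strand, 7 exons), the receptor through which endothelin 3 acts on pigment cells, was at 1644 CPM in control and 1387 CPM in Gli2EKO melanocyte-like cells, a log2 ratio of −0.25 (−0.35 to −0.14). The sum was higher in control, but the median over single cells was higher in Gli2EKO, at 1211 CPM against 1032 CPM. At 2000 UMIs per cell, 79.8% of control and 71.6% of Gli2EKO melanocyte-like cells kept an Ednrb UMI. Most Ednrb UMIs were not in melanocytes. The Col11a1-led fibroblast-like cells, 187 in control and 98 in Gli2EKO, held 64.5% of all 11806 UMIs, at 1985 and 1642 CPM (log2 ratio −0.27, −0.35 to −0.20). In control this class stood above melanocyte-like cells beyond the counting intervals. Schwann-like cells had 518 CPM in control (41 cells) and 1303 CPM in Gli2EKO, but the latter came from 7 cells, and 36 of their 74 UMIs from 1 of them. In Lum-led fibroblast-like cells the values were 80.4 and 24.5 CPM, a ratio of −1.72 (−2.11 to −1.33), and −1.51 without the leading barcodes. The Clec3b-led group had 37 control and 2 Gli2EKO UMIs. Cd74-led immune cells had 237 and 104 CPM (log2 ratio −1.18, −1.72 to −0.67), though 3 barcodes held 91 of the 155 control and 3 held 38 of the 40 Gli2EKO UMIs. Over all fibroblast-like cells Ednrb was at 707 and 375 CPM (log2 ratio −0.92, −0.99 to −0.84), wider than within the Col11a1-led group, which was 187 of 653 control and 98 of 496 Gli2EKO fibroblast-like cells. Fibroblast-like cells had 8 of the 10 genes at 20 UMIs or more, and 1, Gpnmb with 18 and 3 UMIs, was past 2-fold, against 4.36% of all genes (2.39% lower, 1.97% higher). In the Lum-led cells 3 of 6 were past it, Ednrb, Pmel and Dct, all lower, against 4.22% (2.74% lower, 1.48% higher), and 15 of the 36 control Dct UMIs lay in 1 barcode. In the Col11a1-led cells it was 1 of 3, Kitl with 42 and 5 UMIs, against 5.12% (2.97% lower, 2.15% higher). In the Clec3b-led cells 2 of 4 were past it, Edn3 higher and Ednrb lower, against 5.36% (3.53% lower, 1.83% higher).

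The melanin genes Dct (ENSMUSG00000022129, chr14:118250202-118289656, minus strand), Tyrp1 (ENSMUSG00000005994, chr4:80752360-80769956, plus strand), Tyr (ENSMUSG00000004651, chr7:87073979-87142720, minus strand) and Pmel (ENSMUSG00000025359, chr10:128540064-128556107, plus strand) are known targets of Mitf, the master regulator of the melanocyte lineage. Pmel overlaps Cdk2 and Dgka on the opposite strand, and Kit, Ednra, Dct and Gpnmb each overlap a transcript of the opposite strand that was not looked at here. Mitf binds the letters CATGTG, often as TCATGTG, which contains them. The 250 bases before the start of 3 melanin genes and of Gpnmb (ENSMUSG00000029816, chr6:49013426-49047863, plus strand) are shown, from RefSeq on GRCm38.p6 and in the direction of the gene, with CATGTG or its reverse complement in capitals. They show where these letters fall in the genes that shared the melanocyte pattern and in the one that was also high in hair cells.
Dct, chr14:118052247-118052496, minus strand: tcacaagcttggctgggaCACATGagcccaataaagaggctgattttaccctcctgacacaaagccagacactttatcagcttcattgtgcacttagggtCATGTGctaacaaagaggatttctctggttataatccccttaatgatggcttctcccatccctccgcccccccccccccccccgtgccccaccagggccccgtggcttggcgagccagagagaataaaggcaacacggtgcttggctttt
Tyrp1, chr4:80833963-80834212, plus strand: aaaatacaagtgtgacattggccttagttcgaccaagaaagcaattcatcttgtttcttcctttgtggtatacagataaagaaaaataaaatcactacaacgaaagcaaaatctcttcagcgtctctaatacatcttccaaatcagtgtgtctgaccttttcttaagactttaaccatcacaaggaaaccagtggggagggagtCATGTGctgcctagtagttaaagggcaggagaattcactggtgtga
Tyr, chr7:87493513-87493762, minus strand: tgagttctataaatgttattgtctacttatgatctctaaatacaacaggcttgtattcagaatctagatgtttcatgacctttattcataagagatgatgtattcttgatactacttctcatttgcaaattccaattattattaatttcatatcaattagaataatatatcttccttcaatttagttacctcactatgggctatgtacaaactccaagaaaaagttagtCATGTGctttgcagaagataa
Gpnmb, chr6:49036268-49036517, plus strand: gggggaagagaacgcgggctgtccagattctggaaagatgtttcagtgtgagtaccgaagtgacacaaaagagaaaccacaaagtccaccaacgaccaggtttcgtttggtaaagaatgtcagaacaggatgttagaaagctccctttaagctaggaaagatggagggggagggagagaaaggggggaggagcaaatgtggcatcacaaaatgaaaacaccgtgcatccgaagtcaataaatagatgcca
The letters lie 21 bases upstream of the Tyr start, 46 bases upstream of that of Tyrp1, and 150 and 232 bases upstream of that of Dct, the last on the opposite strand. They were present in 3 of the 9 members that the promoter table holds, in each case as TCATGTG, and not in the windows of Kit, Kitl, Edn3, Ednra, Ednrb and Gpnmb. Of all 27025 promoters of that length, 12.2% hold CATGTG and 3.22% hold TCATGTG on either strand. The letters GACCACCCA, bound by Gli proteins, occur in 0.211% of promoters and in none of the 9. A match is a stretch of letters and not a site shown to be used.

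Melanocyte-like cells were 2.33% (1.91 to 2.82%) of control and 2.17% (1.68 to 2.74%) of Gli2EKO cells, a ratio of 0.928 (0.672 to 1.27). They carried Mlana, Mitf, Sox10 and the other melanocyte markers, with Mitf found in 100 of 104 and 62 of 67 cells. Dct, which encodes dopachrome tautomerase, was at 18177 CPM in control and 19360 CPM in Gli2EKO cells, a log2 ratio of 0.09 (0.06 to 0.12), and at −0.03 with the automatic doublet threshold. Every one of the 171 cells had at least 9 Dct UMIs. Pmel was at 7257 and 8788 CPM, a ratio of 0.28 (0.23 to 0.32) with Gli2EKO higher, and its median over single cells was 5314 CPM in control and 7966 CPM in Gli2EKO. Tyrp1 was at 2094 and 2122 CPM (log2 ratio 0.02, −0.07 to 0.11), and Tyr at 2064 and 2122 CPM (0.04, −0.05 to 0.13). For both enzymes the sums were alike, while the medians over single cells differed, at 1030 against 1872 CPM for Tyrp1 and 1388 against 1966 CPM for Tyr. At 2000 UMIs per cell 76.9% of control and 91.0% of Gli2EKO cells kept a Tyrp1 UMI, and 87.5% and 95.5% a Tyr UMI. Gpnmb was at 1524 and 1476 CPM (−0.05, −0.15 to 0.06). Of the 10 genes, 7 had at least 20 UMIs in these cells and 0 were past 2-fold, where 7.41% of all 8928 genes were (4.77% lower, 2.64% higher).

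The melanocyte-like cells of each library were spread over a range of pigment gene levels. When the 171 cells were split at the median of the summed CPM of Mlana, Trpm1, Slc45a2, Slc24a5 and Oca2 (4456 CPM, with 15 cells within 10% of it), the lower-scoring cells were 61 of 104 in control (58.7%, 48.6 to 68.2%) and 24 of 67 in Gli2EKO (35.8%, 24.5 to 48.5%). This split is of a continuous range and not of 2 cell types. Tyrp1 was at 910 CPM in lower-scoring and 2806 CPM in higher-scoring control cells, and Tyr at 1233 and 2564 CPM. Ednrb followed the same course, at 828 and 2135 CPM. Kit ran against it in the control library, with 690 CPM in lower-scoring and 448 CPM in higher-scoring cells. In Gli2EKO cells Kit was level, at 425 and 429 CPM, so that the libraries differed in the lower-scoring cells and hardly in the higher-scoring ones. Depth went with the score in control, with a median of 6537 UMIs in lower-scoring and 15338 in higher-scoring cells, against 10689 and 10025 in Gli2EKO, and its part in the Kit values was not tested. Pmel was at 3896 CPM in control and 6328 CPM in Gli2EKO lower-scoring cells, and at 9276 and 10019 CPM in higher-scoring cells. Gpnmb moved little with the score, between 1300 and 1653 CPM. Cells with at least 2 UMIs of the proliferation genes Mki67 and Top2a together, genes chosen after values were seen, were 22 of 104 in control and 22 of 67 in Gli2EKO. Kit was at 450 and 416 CPM in them and Ednrb at 1733 and 1011 CPM, while in the other cells Ednrb was at 1589 and 1690 CPM. For Ednrb the libraries thus differed in the cells with such UMIs. Those cells were also deeper, with medians of 19377 UMIs in control and 15401 in Gli2EKO. The other cells had medians of 6891.5 and 8945, and the part of depth in the Ednrb values was not tested.

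**Figure D4:**
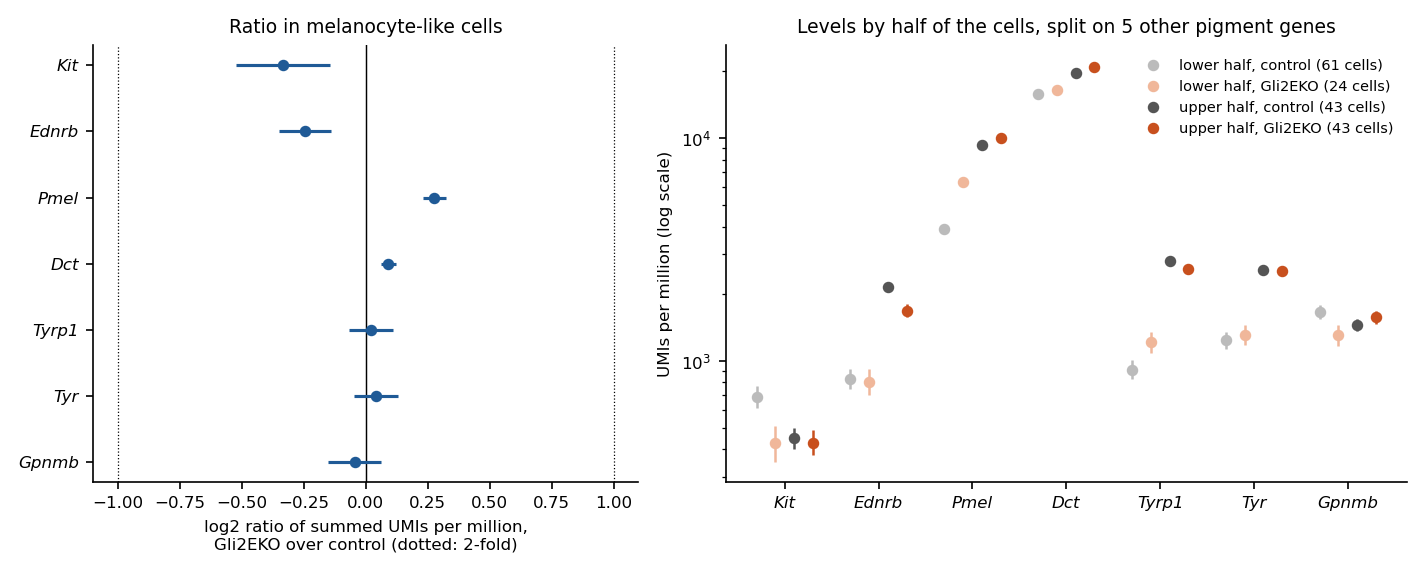
Left, log2 ratio in melanocyte-like cells, Gli2EKO over control, with 95% counting intervals and dotted lines at 2-fold; right, levels in CPM (log scale, bars are 95% Poisson intervals) in the cells scoring below and above the median of 5 other pigment genes. All 7 genes lie within 2-fold, and in the control library Kit is higher in lower-scoring cells (690 against 448 CPM) while Ednrb, Tyrp1 and Tyr are lower there.

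The 4 melanosome genes were also read outside melanocytes, at a far lower level. Together they made up 30730 CPM of melanocyte-like cells and 20.4 CPM of all other cells. Of the 7378 other cells, 1093 (14.8%) had at least 1 such UMI, 16.9% in control and 11.8% in Gli2EKO, and 1039 of them had only 1 or 2. The 11 barcodes with at least 10 held 33.6% of the 2020 UMIs. One of these, among the Gli2EKO dermal papilla-like cells, had 170 pigment UMIs with UMIs of 8 further melanocyte markers. It alone set the Dct level there, which was 134 CPM with it and 10.0 CPM without it, against 4.29 CPM in control. In dermal papilla-like cells 2 of 6 genes were past 2-fold, Pmel and Dct, both higher, against 5.21% of all genes (3.16% lower, 2.06% higher), and both were set by this barcode. A similar barcode held 77 of the 125 Dct UMIs of Gli2EKO basal IFE cells, and another 64 of the 97 of control upper follicle cells. A further 48 control and 31 Gli2EKO barcodes with at least 10 pigment UMIs had been left out before, 31 and 18 of them as likely doublets.

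In matrix-like and early hair lineage-like cells the mixture of these 4 genes differed, beyond counting intervals, from that of all melanocyte-like cells together. Dct made up 60.7% (60.3 to 61.1%) of the pigment UMIs in melanocyte-like cells, 54.9% in fibroblast-like cells, 65.2% in basal IFE cells and 67.7% in ORS/SC-like cells. In matrix-like cells it made up 80.9% (76.0 to 85.2%) of 304 UMIs, with 81.4% in control and 79.1% in Gli2EKO. In early hair lineage-like cells it was 86.4% (77.0 to 93.0%) of 81 UMIs, with 86.4% and 86.7%. Both intervals lay above the share of all melanocyte-like cells together. In dermal papilla-like and ORS/SC-like cells the interval also lay above it, but there 1 to 4 barcodes with at least 10 pigment UMIs took part, and without them ORS/SC-like cells were at 63.4% (56.6 to 69.9%). Pmel made up 10.5% of the pigment UMIs in matrix-like and 11.1% in early hair lineage-like cells, against 25.6% in melanocyte-like cells. Within melanocyte-like cells the mixture varied too. In control, Dct was at 15801 and Pmel at 3896 CPM in lower-scoring cells, and at 19605 and 9276 CPM in higher-scoring ones. The follicle classes were not compared with these parts. Without barcodes of at least 10 pigment UMIs the matrix share of Dct was 83.5% (78.6 to 87.6%). The Dct UMIs of matrix-like cells were spread over 125 of 397 control and 34 of 161 Gli2EKO cells, and their level was 28.2 CPM in control and 19.3 CPM in Gli2EKO cells, against 3.59 CPM in immune cells of both libraries. The log2 ratio was −0.55 (−1.01 to −0.10), while at 2000 UMIs per cell 3.54% of control and 4.97% of Gli2EKO cells kept a Dct UMI, and no order was read from these.

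**Figure D5:**
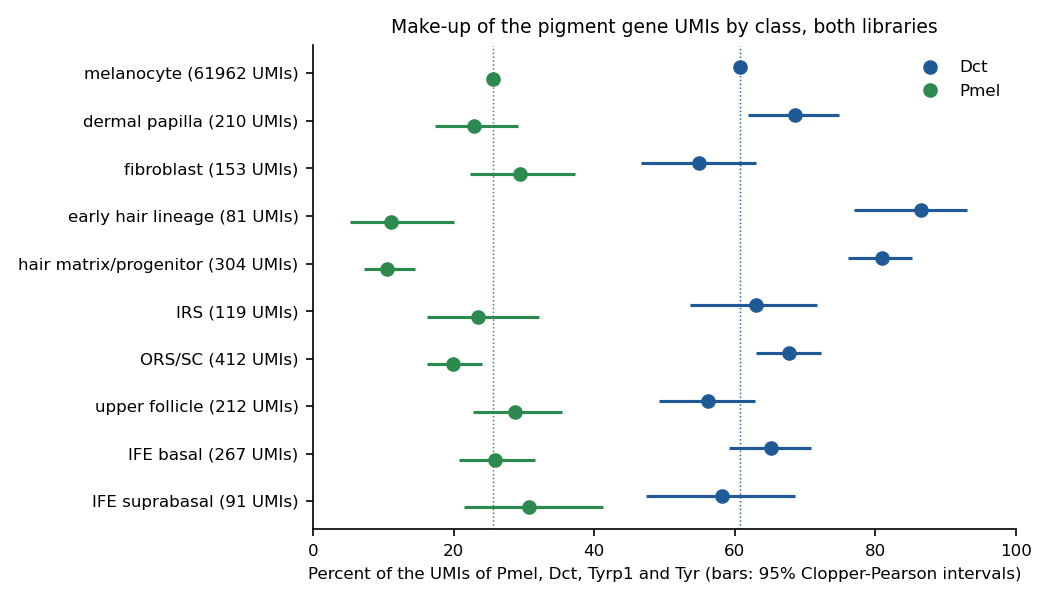
Share of Dct (blue) and Pmel (green) among the UMIs of Pmel, Dct, Tyrp1 and Tyr in 10 classes, both libraries together, with 95% Clopper-Pearson intervals; dotted lines mark the melanocyte shares and the number of UMIs stands beside each class. Among the classes drawn, each with at least 81 such UMIs, early hair lineage-like and matrix-like cells lie farthest from the melanocyte lines, with Dct at 86.4% and 80.9% against 60.7% in melanocyte-like cells.

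Gpnmb was highest in melanocyte-like cells and next highest in the early hair lineage and hair shaft classes. Early hair lineage-like cells had 945 CPM in control (1548 UMIs in 95 of 207 cells) and 748 CPM in Gli2EKO (277 UMIs in 32 of 64 cells), a log2 ratio of −0.34 (−0.53 to −0.15), which was 0.28 (−0.15 to 0.68) with cells taken one by one from their markers. Hair shaft-like cells had 390 CPM in 99 control and 1002 CPM in 45 Gli2EKO cells, a ratio of 1.36 (1.16 to 1.57), and no barcode held more than 41 of the 397 Gli2EKO UMIs. The 6 hair shaft markers found, keratins and S100a3, stood at 6339 and 16368 CPM in the same cells, a log2 ratio of 1.37, so that the difference in Gpnmb was of the size of that in the markers that define the class. The part of this in the Gpnmb difference was not tested. These classes merged into one under several other settings, and as 1 class they gave 734 and 879 CPM, a ratio of 0.26 (0.13 to 0.39). Matrix-like cells had 32.5 and 8.75 CPM (−1.89, −2.56 to −1.28) and ORS/SC-like cells 112 and 9 UMIs (−2.66, −3.83 to −1.68). The 112 lay in 28 of 943 control ORS/SC-like cells, with 50 of them in 3 barcodes. In matrix-like cells 3 barcodes held 78 of the 222 control and 3 held 14 of the 24 Gli2EKO UMIs. IRS-like cells had 23.9 and 39.1 CPM (0.71, 0.18 to 1.23), though 3 barcodes held 44 of the 71 control and 3 held 51 of the 58 Gli2EKO UMIs. In sebaceous gland-like cells 54 of the 56 control UMIs lay in 1 barcode. Over all keratinocytes Gpnmb was at 55.0 and 25.8 CPM, a ratio of −1.09 (−1.21 to −0.98), and with clusters weighted to control proportions it was level (−0.01). The early hair lineage class held 61.0% of the control and 32.2% of the Gli2EKO keratinocyte UMIs of Gpnmb.

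Lists of further genes of these pathways were read in the same cells. Of 22 other pigment and melanosome genes, 20 had at least 20 UMIs in melanocyte-like cells. Of these 0 were higher and 1, Bloc1s1 (39 and 13 UMIs, log2 ratio −1.04), was lower past 2-fold, with a median of −0.29 where the median of all genes was −0.04. Transporters and receptors of the melanocyte varied within this: Slc24a5, an exchanger of the melanosome, was at 0.22 (0.12 to 0.33), Mlana at −0.08, Oca2, which sets melanosome pH, at −0.54 (−0.68 to −0.40), Gpr143 at −0.78 (−1.08 to −0.48) and Trpm1 at −0.51 (−0.61 to −0.41). These last 3 were lower in sum but were found in a larger share of Gli2EKO cells, 76.1% against 45.2% for Oca2, 65.7% against 54.8% for Gpr143 and 64 of 67 against 77 of 104 cells for Trpm1, at the greater depth of the Gli2EKO cells. The median of Trpm1 over single cells was 729 CPM in control and 1063 CPM in Gli2EKO. The regulators Mitf and Sox10 were at −0.17 (−0.32 to −0.03) and −0.34 (−0.60 to −0.08). Of 14 partners of Kit in signalling, 13 could be read there and 0 were past 2-fold, with a median of −0.29. Among them, Fyn, a Src-family kinase, was at −0.65 and Grb2, an adaptor, at 0.07. Of 10 other genes of the endothelin pathway 5 could be read, 0 past 2-fold, with a median of −0.30, and the phospholipase gene Plcb4 was at −0.99 (−1.41 to −0.59). Of the 13 other ligands and receptors that act on melanocytes and were found, 5 could be read and 0 were past 2-fold. Adamts20, a protease needed for melanoblast survival, was at 0.90 (0.30 to 1.51), Erbb3 at −0.73 (−1.31 to −0.17) and Met, the receptor of hepatocyte growth factor, at −0.08. Nrg1 and Asip, both on that list, were not analysed here.

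In the cells around melanocytes the same lists held few genes past 2-fold. In matrix-like cells 11 pigment genes, 13 Kit partners, 9 endothelin genes and 7 other ligands and receptors could be read, and Mreg (−1.44, −2.11 to −0.83) and Gab2 (−1.62, −4.00 to 0.11), both lower, were past 2-fold. In early hair lineage-like cells 10 pigment genes, 10 Kit partners, 8 endothelin genes and 4 ligands and receptors could be read, and Rab32, Hps1, Fgf2 and Erbb3 were lower past 2-fold, each with at most 5 Gli2EKO UMIs and an interval that included 0. In dermal papilla-like cells Mlana was higher (3 and 18 UMIs), but the 18 lay in 1.32% of 151 cells, in the class that holds the barcode with 170 pigment UMIs, and Dusp6 (interval −3.58 to 0.02), Plcb4, Fgf2 and Ngfr were lower. In hair shaft-like cells Mreg was higher (1.05) and Ece1, which activates endothelins, was lower (29 and 2 UMIs). Among the genes past 2-fold over all keratinocytes, Hgf was higher on 4 and 16 UMIs, and Oca2 (51 and 6 UMIs) and Lyn, a Src-family kinase gene (74 and 20 UMIs), were lower. The shares of all genes past 2-fold in these classes are those given above.

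The profiles of the genes over classes and libraries were compared with those of 13534 other genes, as a description over 34 points (17 classes in 2 libraries) that share libraries and depth. Pmel was most like Pax3, Slc45a2 and Tyrp1 (Pearson r of log2 levels 0.99 each). Kit was most like Eya1 (0.93), Dct (0.92) and Cpne4 (0.91). Edn3 was most like Khdrbs2 (0.98), Rspo3 (0.98), itself a dermal papilla marker, and Cadm2 (0.97). The closest profiles to Kitl were those of Ccdc68 (0.85), Srl (0.83) and Zfp850 (0.81), and to Ednra those of Tmtc1 (0.86), Pdia5 (0.86) and Gucy1a2 (0.84). Ednrb was nearest to Vamp5 (0.89), Tmem140 (0.88) and Ap1s2 (0.82), and Gpnmb to Spsb4 (0.93), Cyfip2 (0.86) and Tex2 (0.86), none of them a melanocyte marker of the lists used.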

How the data were processed

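Single-cell RNA libraries (10x 3' chemistry) were made from back skin epidermis of 1 control and 1 Gli2EKO sample, with 6326 and 4296 barcodes and 71021773 and 48866478 UMIs. The deposited values are raw UMI counts per gene and barcode, which the authors made with Cell Ranger 9.0.1 on GRCm39 with GENCODE M30 annotation, and the use of strand in counting is not given in the sources used here. The members and gene lists were chosen with earlier results of these data known.

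Barcodes with 1000 to 8000 genes and under 15% mitochondrial UMIs were kept (4844 and 3362), and the 8% with the highest Scrublet score (scanpy 1.11.5) were removed per library, since the automatic threshold marked 260 and 5. The doublet caller of the study was not run. Counts were normalised and clustered in Seurat 5.3.0 under R 4.3.3 (2000 variable genes without the members, 20 components, integration by a rewritten Harmony step, resolution 0.5), first over all cells and then over keratinocytes. A cluster was called by the markers with the highest score where at least 3 were detected, and 128 Gli2EKO and 241 control keratinocytes stayed unnamed. UMIs were summed per class and library. The genes named are the members, the list genes past 2-fold with examples, and the 3 most alike profiles per member. Intervals are Poisson, Clopper-Pearson or conditional binomial ones (scipy 1.17.1) and cover counting error only. Shares were compared after thinning to 2000 UMIs per cell. The calculation of ratios was tested on simulated data. Nrg1 and Asip were not analysed here, the former having more than 1 identifier, and some list genes are not reported here. Alternatives changed the doublet step, cell limits, integration, resolution, class rule, minimum of UMIs and scaling.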

Additional observations from a re-analysis of the deposited data

Results flagged for a closer look

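For 7 members the ratio between the libraries had opposite directions in 2 classes, with intervals on either side of 0 also without the leading barcode of each library. These pairs were picked as extremes over all classes, and the difference between the classes was not tested. Kitl was at 0.46 in basal IFE cells and −4.55 in sebaceous gland-like cells (log2 ratio), where 74 of 89 control UMIs lay in 1 barcode and the Gli2EKO cells held 3 UMIs. Edn3 was at 1.00 in Clec3b-led and −0.92 in Lum-led fibroblast-like cells. Ednra was at 0.80 in hair shaft-like and −0.58 in Clec3b-led cells. Ednrb was at 1.33 in Schwann-like cells, of which the Gli2EKO library had 7, and at −3.51 in Clec3b-led cells, on 37 and 2 UMIs. Pmel was at 0.28 in melanocyte-like and −1.77 in Lum-led cells, the latter on 18 and 5 UMIs. Dct was at 0.091 in melanocyte-like and −0.55 in matrix-like cells. The melanocyte ratio of Dct turned to the other direction with the automatic doublet threshold. In matrix-like cells the share of cells keeping a Dct UMI after thinning was higher in Gli2EKO, and no order was read there. Gpnmb was at 1.36 in hair shaft-like and −2.66 in ORS/SC-like cells, the latter on 112 and 9 UMIs, with 50 of the 112 in 3 barcodes.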

How the results depend on the processing

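No paired analysis was possible because each genotype had 1 library. Of 204 log2 ratios recomputed under alternatives, 184 moved by less than their interval, 16 moved further and 4 turned direction. With the automatic doublet threshold, Dct in melanocyte-like cells turned to −0.026, Ednrb there was −0.43, Pmel 0.12, and Edn3 in dermal papilla-like cells −0.60. With cells assigned one by one from markers, Kitl turned to 0.025 in the early hair lineage and to 0.98 in dermal papilla-like cells, Gpnmb turned to 0.28 in the early hair lineage, and Pmel in melanocyte-like cells was 0.21. Without doublet removal Pmel there was 0.35. Without integration, the early hair lineage and hair shaft classes as 1 class gave −0.70 for Kitl and 0.089 for Gpnmb, in place of −0.54 and 0.26. Scaled to a median ratio of 0, Kitl in all keratinocytes was −0.66. Members past 2-fold in melanocyte-like cells were 2 with no minimum of UMIs and 2 without doublet removal, in place of 0. In the early hair lineage and hair shaft class they were 5 with no minimum, 3 without doublet removal, 0 with relaxed limits and 0 without integration, in place of 1. That 1 was Kit, on 55 control and 5 Gli2EKO UMIs (log2 ratio −1.67, −3.35 to −0.37). The share of all genes past 2-fold under these settings is not given here. No result about the members was therefore read from these counts. The cause of their changes was not tested, beyond the low counts that the minimum removes. The 2 alternatives on high-pigment and leading barcodes were chosen after seeing the data. Early hair lineage cells formed no class of their own under 4 of the settings, and small classes (8 endothelial and 7 Schwann-like Gli2EKO cells) limit what depth can show.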
